A study of Mus musculus with 15 samples.

Results

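The 8 annexin genes Anxa1 to Anxa7 and Anxa11, together with S100a10, were followed through cortex libraries of aged mice with and without a substitution in a ribosomal protein. They are 9 of 22524 gene identifiers counted in every library and were chosen by gene symbol, with the comparison of genotypes already in view. The genotype values of these 9 genes are therefore given as a description, without p-values. RNA of 15 female C57BL/6 mice aged 18 months was sequenced. Of these, 7 were heterozygous for Rps9 D95N, which alters a small-subunit ribosomal protein, and 8 were wild-type littermates with both copies intact. Libraries are named by genotype and animal number.

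Annexins are a family of proteins that bind negatively charged membrane phospholipids when calcium rises, through a conserved core of repeats, while their amino-terminal tails differ and carry binding sites for partners. Annexin A2 is the classic example: its tail binds S100A10, also called p11, and the complex links membranes to actin, displays plasminogen at the cell surface and carries channels and receptors to the membrane. S100A10 is unusual among S100 proteins because it no longer needs calcium to bind its partner. In brain, annexins are found in endothelium, meninges, microglia and astrocytes as well as in neurons, and S100A10 in particular neuronal populations is known for its part in serotonin signalling.

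Total counts ran from 23349381 to 34587082 per library. The tissue field of the labels names skeletal muscle while the series design names brain cortex. Summed neuron markers stood at 6539 to 8010 CPM (the count of a gene relative to library size, scaled with TMM factors) over all libraries and summed skeletal muscle markers at 6.27 to 30.1 CPM, the highest in wild-type 19. Of 14989 genes tested by edgeR's quasi-likelihood test, 26.8% passed an adjusted p of 0.05 between genotypes, 15.2% higher and 11.6% lower in D95N. In 3.28% all libraries of one genotype lay above all of the other. Summed markers of meningeal fibroblasts ran from 97.96 to 197.7 CPM in D95N and from 173.8 to 241 CPM in wild type, and 5 of their 11 markers fell. Those of red cells ran from 36.0 to 148 CPM in D95N and from 73.6 to 286 CPM in wild type, with all 5 lower and D95N 42 the highest of its genotype. In bulk tissue, fewer cells of a type and less RNA per cell cannot be told apart.

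RefSeq promoter windows of GRCm38.p6, reaching from 250 bases before to 50 bases after a start site, were on hand for 6 of the 9 genes. Those of Anxa2 and Anxa4 are shown because these genes had the largest differences between genotypes. Capitals mark matches on either strand to the letters of 4 common promoter motifs. The AP-1 site, bound by Fos and Jun proteins, was searched as TGANTCA (N is any base), and the box near many start sites that binds the TATA-binding protein was searched as TATAAA. The GC box, bound by Sp1 and its relatives, was searched as GGGCGG, and the NF-Y site was searched as CCAAT.
Anxa2 promoter, plus strand, chr9:69453433-69453732: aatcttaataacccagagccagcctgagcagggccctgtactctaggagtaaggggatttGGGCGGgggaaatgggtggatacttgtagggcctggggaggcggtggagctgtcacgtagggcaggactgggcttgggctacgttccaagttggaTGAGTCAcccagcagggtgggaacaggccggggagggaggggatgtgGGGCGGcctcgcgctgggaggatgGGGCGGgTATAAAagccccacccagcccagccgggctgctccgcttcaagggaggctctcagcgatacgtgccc
Anxa4 upstream promoter, minus strand, chr6:86793535-86793834: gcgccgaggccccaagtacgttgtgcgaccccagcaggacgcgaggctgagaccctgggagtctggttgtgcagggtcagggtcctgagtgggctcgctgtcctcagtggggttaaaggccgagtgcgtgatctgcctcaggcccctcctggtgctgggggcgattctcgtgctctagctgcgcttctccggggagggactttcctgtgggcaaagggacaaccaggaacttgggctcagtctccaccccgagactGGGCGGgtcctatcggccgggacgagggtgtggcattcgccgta
Anxa4 downstream promoter, minus strand, chr6:86775065-86775364: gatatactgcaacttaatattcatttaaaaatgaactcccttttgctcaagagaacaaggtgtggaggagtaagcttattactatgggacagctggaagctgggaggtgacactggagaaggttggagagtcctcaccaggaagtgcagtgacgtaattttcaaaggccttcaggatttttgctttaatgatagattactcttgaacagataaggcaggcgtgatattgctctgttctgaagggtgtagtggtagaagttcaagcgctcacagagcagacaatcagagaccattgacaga
The Anxa2 window held 1 AP-1 match, at -95 from the start site, a TATA match at -17 and 3 GC boxes. AP-1 matches were present in 7.81% of 32851 promoter windows of this length, TATA matches in 13.6%, GC boxes in 35.7% and CCAAT boxes in 37.4%. None of the matches shown overlapped another motif. The upstream Anxa4 window had 1 GC box, 20 CpG dinucleotides and 65.3% G and C, and the downstream window had no match to any motif, 3 CpG dinucleotides and 43% G and C. The gene counts do not separate transcripts from these Anxa4 start sites. Of the other windows, Anxa1 had a TATA match at -32, Anxa11 had 3 GC boxes, 1 Anxa7 window had 4 and the other 1, and Anxa5 had no match. The Anxa7 windows overlap, and the single box of the latter is also among the 4 of the former.

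Annexin transcripts in wild-type cortex covered a wide range of levels. Exon length was the union of all annotated exons, 1777 bases for Anxa5 and 5991 for Anxa7. Levels per kb, their order and their shares therefore depend on the annotation. Before division by length the order differed, with wild-type means of 105 CPM for Anxa6, 103 CPM for Anxa7 and 64.8 CPM for Anxa5. Per kilobase of exon, Anxa5 led at 36.4 ± 1.76 CPM per kb (SD, n = 8), beside Anxa6 at 35.9 ± 1.94 CPM per kb, and the ranges of these 2 genes overlapped. Annexin A5 is the phosphatidylserine-binding protein used to stain dying cells, and annexin A6 is the longest annexin, with a duplicated core. Anxa7 followed at 17.2, S100a10 at 14.1 and Anxa11 at 5.59 CPM per kb, each with a range that did not meet the next. Anxa3 at 3.61 and Anxa2 at 3.18 CPM per kb overlapped, as did Anxa4 at 1.28 and Anxa1 at 0.843 CPM per kb. Anxa5 and Anxa6 together made up 69.5% ± 1.04 (SD, n = 8) of the summed annexin level per kb in wild type and 68.7% ± 1.78 (SD, n = 7) in D95N. The order in D95N differed only at the top, where mean Anxa6 stood at 39.6 and Anxa5 at 35.6 CPM per kb. The summed level of the 8 annexins ran from 96.7 to 107 CPM per kb in wild type and from 103.8 to 115.7 in D95N.

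All 9 genes entered the test, and 5 of them passed the threshold, all higher in D95N: Anxa2, Anxa3, Anxa4, Anxa6 and Anxa11. The share of all tested genes that passed was 26.8%, and 15.2% were higher. Because the genes were chosen with this contrast in view, nothing is read from that count. With library totals in place of TMM factors 2 passed, Anxa3 and Anxa4, and the other 3 stayed higher in D95N without passing. With TMM factors, the median log2 fold change of the 9 genes was 0.14 and that of all tested genes -0.01.

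**Figure D1:**
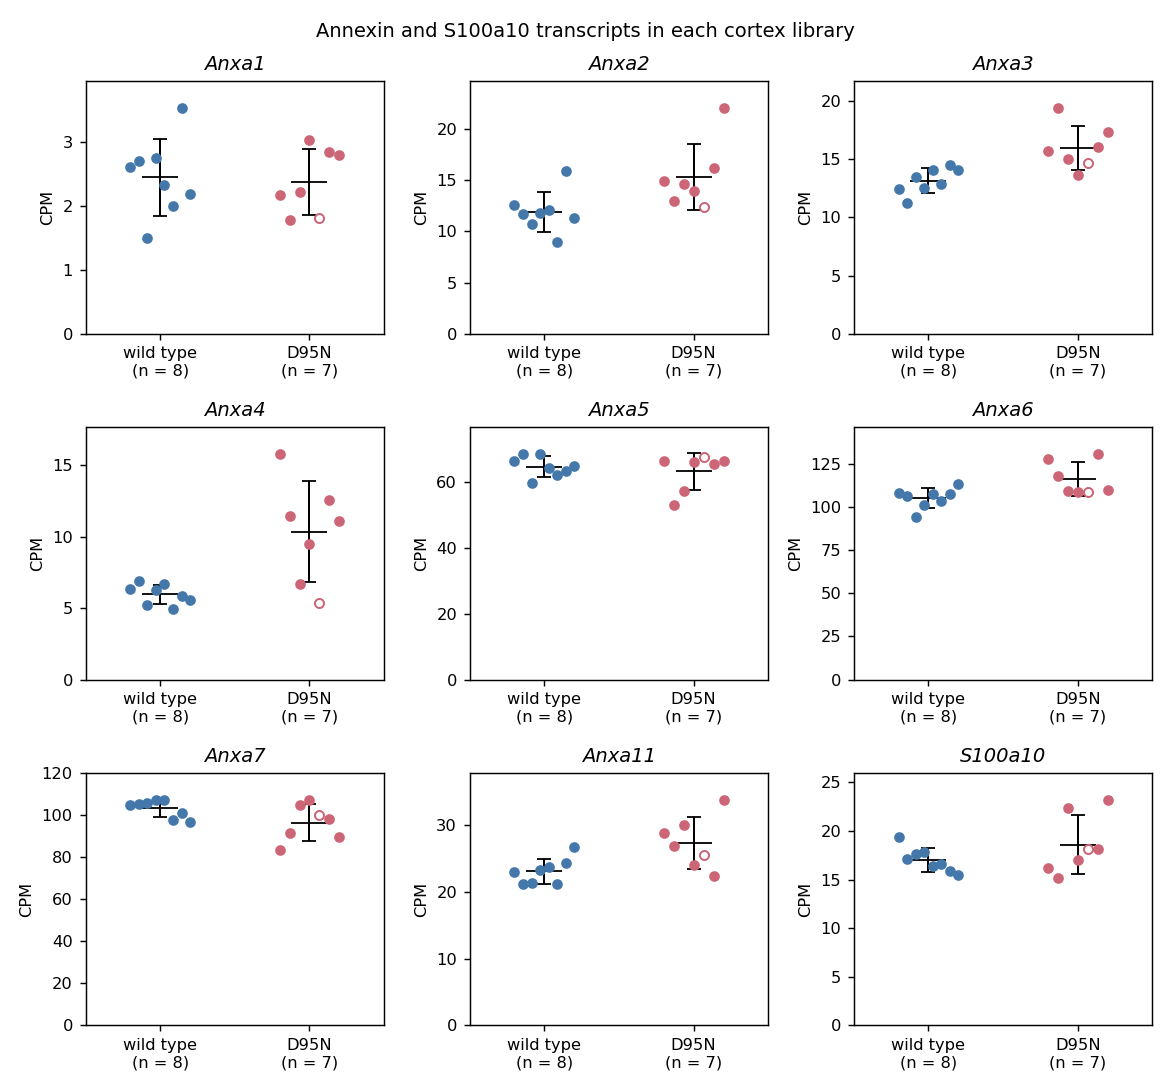
CPM of each of the 9 genes in each library, by genotype, with 1 point per animal, the mean and the SD as bars, and D95N 42 as an open circle. Anxa4 in D95N spread from 5.33 to 15.8 CPM, while the wild-type libraries sat between 4.97 and 6.87 CPM.

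Anxa4 had the largest difference. It encodes an annexin found at the membranes of secretory epithelia and other cells, where it gathers into arrays on the inner face. The gene (ENSMUSG00000029994) lies on the minus strand of chromosome 6, from 86736840 to 86793584 of GRCm38. In wild type its lowest, median and highest levels were 4.97, 6.04 and 6.87 CPM. In D95N they were 5.33, 11.1 and 15.8 CPM. D95N 4, 44, 21, 50 and 41 lay above every wild-type library, from 9.49 CPM upward, whereas D95N 28 at 6.71 CPM and D95N 42 at 5.33 CPM lay inside the wild-type range. Means were 5.96 ± 0.684 CPM (SD, n = 8) in wild type and 10.4 ± 3.55 CPM (SD, n = 7) in D95N, a 1.74-fold difference with a log2 fold change of 0.80 ± 0.17 (SE). Leaving out single libraries moved the latter between 0.67, without D95N 4, and 0.91, without D95N 42. The coefficient of variation of Anxa4 was 34.3% in D95N and 11.5% in wild type, the widest spread of the 9 genes within D95N.

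Anxa2, the S100A10 partner (ENSMUSG00000032231, chromosome 9, 69453620 to 69491795, plus strand), came next. Its lowest, median and highest levels were 8.92, 11.7 and 15.9 CPM in wild type and 12.4, 14.6 and 22.0 CPM in D95N. The groups overlapped: D95N 44 and D95N 50 exceeded the highest wild-type library, wild-type 32, and all 7 D95N libraries lay above the wild-type mean. Means of 11.9 ± 1.97 and 15.3 ± 3.22 CPM gave a log2 fold change of 0.36 ± 0.12 (SE), or 1.29-fold. It was 0.26 without D95N 50, and the gene then missed the threshold.

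S100a10 (ENSMUSG00000041959, chromosome 3, 93555080 to 93564643, plus strand) did not pass. Its lowest, median and highest levels were 15.4, 16.8 and 19.4 CPM in wild type and 15.1, 18.1 and 23.2 CPM in D95N, with D95N 50 and D95N 28 above all wild-type libraries and D95N 21 below them. The log2 fold change was 0.12 ± 0.08 (SE). It was 0.064 without D95N 50 and 0.074 without D95N 28. Wild-type means were 17.0 CPM for S100a10 and 11.9 CPM for Anxa2, with annotated exon lengths of 1212 and 3731 bases. Per kilobase, S100a10 exceeded Anxa2 by a ratio of 4.53 ± 0.765 (SD, n = 8) in wild type and 3.80 ± 0.584 (SD, n = 7) in D95N. The ratios ran from 3.08 to 5.72 and from 3.25 to 4.72, so every D95N library lay inside the wild-type range. Across wild-type libraries the 2 partners showed no clear relation (Pearson r = -0.06, exact permutation p = 0.904; Spearman rho = 0.05, p = 0.935). Without the 2 wild-type libraries farthest from the median of Anxa2, r was 0.41. In D95N, r was 0.66 (exact permutation p = 0.0998) and rho 0.39 (p = 0.396), and r was 0.42 without the 2 libraries farthest from the median of Anxa2. After adjustment over the 36 pairs tested, the p of r was 0.904 in wild type and 0.773 in D95N.

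Anxa3 had more D95N libraries above the wild-type range than any other of the 9 genes. Annexin A3 is known from neutrophil granules and, in brain, from microglia and growing vessels. The gene (ENSMUSG00000029484, chromosome 5, 96793339 to 96845966, plus strand) stood at a lowest, median and highest level of 11.2, 13.2 and 14.5 CPM in wild type and 13.6, 15.7 and 19.4 CPM in D95N. Except for D95N 41, at 13.6 CPM, every D95N library lay above all wild-type libraries, D95N 42 among them. The log2 fold change was 0.28 ± 0.07 (SE), or 1.21-fold. With each library left out in turn it ran from 0.23 to 0.31.

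Anxa6 and Anxa11 showed smaller differences. Annexin A6 works in endosome traffic and cholesterol handling, and annexin A11 tethers RNA granules to lysosomes for transport along axons. Anxa6 (ENSMUSG00000018340, chromosome 11, 54979108 to 55033445, minus strand) stood at a lowest, median and highest level of 94.2, 106.7 and 113 CPM in wild type and 108, 109.9 and 131 CPM in D95N, a log2 fold change of 0.14 ± 0.05 (SE). D95N 44, 4 and 21 exceeded all wild-type libraries and the other 4 lay within their range. Anxa11 (ENSMUSG00000021866, chromosome 14, 25842156 to 25886804, plus strand) stood at 21.2, 23.2 and 26.7 CPM in wild type and 22.5, 26.9 and 33.8 CPM in D95N, a log2 fold change of 0.24 ± 0.08 (SE). Its 4 highest D95N libraries, 50, 28, 4 and 21, lay above the wild-type range. Anxa6 was called in 8 of the 15 fits that left out a library and missed the threshold without D95N 21, 4 or 44 or wild-type 11, 16, 19 or 30. Anxa11 was called in 9 and missed it without D95N 28, 4 or 50 or wild-type 11, 16 or 30. Anxa2 was called in 8.

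Anxa1, Anxa5 and Anxa7 did not pass. Annexin A1 is a glucocorticoid-induced protein that limits inflammation through formyl peptide receptors. Anxa1 (ENSMUSG00000024659, chromosome 19, 20373428 to 20390944, minus strand) was the scarcest member, at a lowest, median and highest level of 1.51, 2.47 and 3.53 CPM in wild type and 1.78, 2.22 and 3.04 CPM in D95N, a log2 fold change of -0.04 ± 0.17 (SE). All D95N libraries lay inside the wild-type range. Anxa5 (ENSMUSG00000027712, chromosome 3, 36448923 to 36475894, minus strand) stood at 59.6, 64.5 and 68.6 CPM in wild type and 53.2, 66.1 and 67.8 CPM in D95N, a log2 fold change of -0.03 ± 0.05 (SE). D95N 21 at 53.2 CPM and D95N 28 at 57.5 CPM lay below every wild-type library and the other 5 did not. Anxa7 encodes annexin A7, or synexin, described in vesicle fusion and calcium handling. The gene (ENSMUSG00000021814, chromosome 14, 20455260 to 20480133, minus strand) stood at 96.7, 105 and 107 CPM in wild type and 83.5, 98.2 and 107 CPM in D95N, a log2 fold change of -0.10 ± 0.05 (SE), which was -0.064 without D95N 4. D95N 4, 50 and 21 were below all wild-type libraries and D95N 41 just above them.

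The members outside the wild-type range differed from library to library. D95N 50 lay above all wild-type libraries in 5 of the genes and below them in 1. D95N 21 lay above in 4 and below in 3, D95N 4 above in 4 and below in 1, and D95N 44 above in 4 and below in none. D95N 28 lay above in 3 and below in 1 and D95N 41 above in 2. D95N 42 lay above in Anxa3 alone and below in none. The share of all tested genes outside the wild-type range was not computed for single libraries, so nothing is read from these counts. Short stretches of exon were shared with other annotated genes that are no identifiers in the tables: 98 bases of Anxa2 with Gm16144 and 113 of Anxa11 with Anxa11os on the opposite strand, 75 of Anxa4 with Gm44036 on the opposite strand, and 112 of Anxa3 with Gm42603 on the same strand. The strand setting of the counting is not given in the sources used here.

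**Figure D2:**
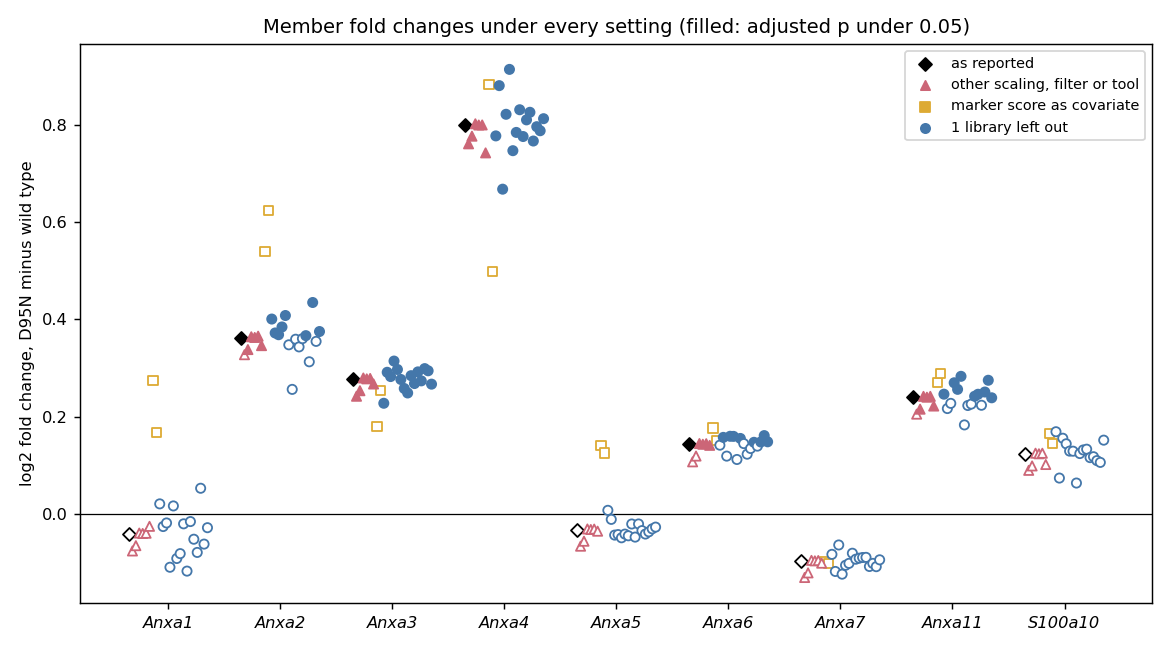
Log2 fold change, D95N minus wild type, of each of the 9 genes under the reported setting, the 8 other settings and with each library left out. Anxa4 ranged from 0.50 to 0.91 and stayed above 0 throughout, while Anxa1 and Anxa5 crossed 0.

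Within a genotype, pairs of the 9 genes were compared by Pearson's r of log2 CPM with exact permutation p-values. Of 36 pairs, 0 passed adjustment in either genotype, and 2 in wild type and 1 in D95N had an unadjusted p under 0.05. The median r was 0.27 in wild type and 0.05 in D95N. Anxa1 and Anxa2 had an r of 0.77 in wild type (exact permutation p = 0.0364, adjusted 0.486; rho = 0.79, p = 0.0279), 0.75 without the 2 libraries farthest from the median, and 0.62 in D95N (exact permutation p = 0.12, adjusted 0.773). Anxa4 and Anxa5 had an r of 0.78 in wild type (exact permutation p = 0.0241, adjusted 0.486; rho = 0.69, p = 0.0694) and 0.51 without the 2 farthest, against 0.02 in D95N. Anxa4 and Anxa6 had an r of 0.76 in D95N (exact permutation p = 0.0484, adjusted 0.773; rho = 0.86, p = 0.0238) and 0.33 in wild type. The differences between genotypes in these correlations were not tested.

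**Figure D3:**
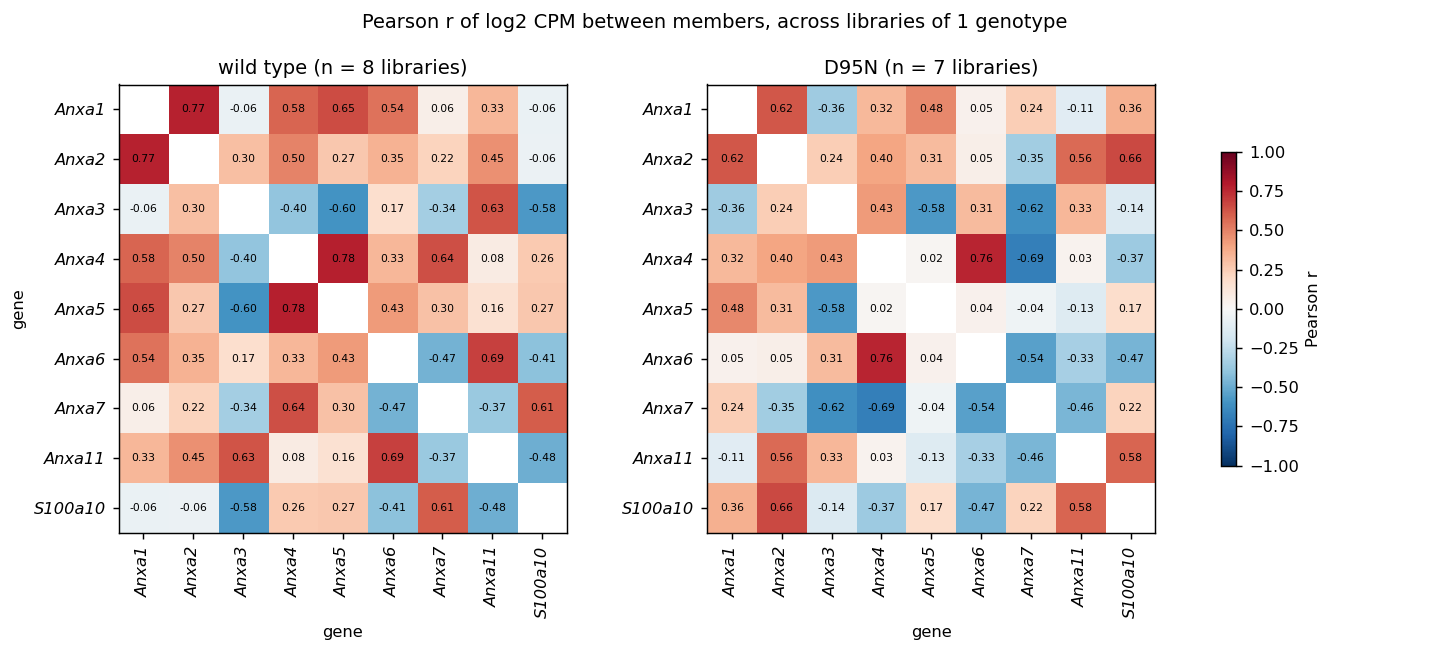
Pearson r of log2 CPM for every pair of the 9 genes across the 8 wild-type libraries (left) and the 7 D95N libraries (right), colour running from -1 to 1. Anxa1 and Anxa2 were at 0.77 and 0.62, and no pair passed adjustment in either panel.

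The same was done for the 9 genes against summed markers of 13 cell types, 117 relations in each genotype. None passed adjustment (0 in each, 8 and 5 with an unadjusted p under 0.05). Anxa5 followed meningeal fibroblast markers most closely in D95N (r = 0.95, exact permutation p = 0.00516, adjusted 0.604; rho = 0.93, p = 0.00675). Without the 2 libraries farthest from the median r was 0.48, so the size of r depends on those libraries. In wild type r was 0.69 over all libraries (exact permutation p = 0.0555) and 0.28 without the 2 farthest. Anxa6 had a higher wild-type r with these markers (0.82, exact permutation p = 0.0175, adjusted 0.572). So had Anxa11 (0.73, exact permutation p = 0.0396, adjusted 0.614). Without the 2 farthest those r were -0.06 and 0.78. In D95N they were -0.15 and 0.09, and -0.70 and -0.49 without the 2 farthest. Anxa3 followed endothelial markers in wild type (r = 0.85, exact permutation p = 0.00734, adjusted 0.572; rho = 0.83, p = 0.0154), with an r of 0.90 without the 2 farthest, against -0.08 in D95N. Anxa2 followed microglial markers in wild type (r = 0.81, exact permutation p = 0.0244, adjusted 0.572; rho = 0.88, p = 0.00724), with an r of 0.89 without the 2 farthest, against 0.26 in D95N (exact permutation p = 0.495; rho = 0.39, p = 0.396). Without the 2 farthest, this r was 0.91 in D95N, so its size there depends on those libraries. Anxa1 went with microglial markers in wild type (r = 0.81, exact permutation p = 0.0198, adjusted 0.572), but r was 0.19 without the 2 farthest. In D95N r was 0.58 for Anxa1, and 0.46 without the 2 farthest. In wild type Anxa2 also went with neutrophil markers (r = 0.77, exact permutation p = 0.0204, adjusted 0.572) and choroid plexus markers (r = 0.75, exact permutation p = 0.0368, adjusted 0.614). Without the 2 farthest these r were 0.55 and 0.40. In D95N they were 0.35 and 0.57 over all libraries, but -0.90 and -0.20 without the 2 farthest. Anxa5 also went with ependymal markers in D95N (r = 0.76, exact permutation p = 0.0353, adjusted 0.749). Anxa6 went with astrocyte markers in D95N (r = 0.79, exact permutation p = 0.0448, adjusted 0.749). Without the 2 farthest those r were 0.41 and 0.29. Anxa4 went with astrocyte markers in wild type (r = 0.70, exact permutation p = 0.0437, adjusted 0.614; rho = 0.76, p = 0.0368) and in D95N (r = 0.84, exact permutation p = 0.0200, adjusted 0.749; rho = 0.82, p = 0.0341), with an r of 0.61 and 0.73 without the 2 farthest. It also went with neuron markers in D95N (r = 0.81, exact permutation p = 0.0284, adjusted 0.749; rho = 0.86, p = 0.0238), with an r of 0.83 without the 2 farthest, against 0.33 in wild type (exact permutation p = 0.424; rho = 0.14, p = 0.752).

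Levels of these markers between genotypes stand beside the annexin values as follows. Summed endothelial markers ran from 291 to 424 CPM in wild type and from 263 to 363 CPM in D95N, with 3 of 10 lower. Microglial markers ran from 423 to 531 and from 357 to 494 CPM, with 1 of 8 higher. Astrocyte markers ran from 4089 to 4567 and from 3733 to 4860 CPM, with 1 of 7 higher and 3 lower. Slc1a2 held 2624 of a mean astrocyte sum of 4217 CPM in wild type and did not pass. Mean Gfap rose from 390 to 712 CPM, while Slc1a3, Gja1 and Slc4a4 fell, so the astrocyte sum does not speak for every marker. Neuron markers ran from 6619 to 7251 and from 6539 to 8010 CPM, with 2 of 6 higher and 1 lower. Their sum exceeded the wild-type maximum in 4 D95N libraries but does not speak for every marker. Mean Slc17a7 rose from 1252 to 1771 CPM and mean Gad1 from 534 to 617 CPM. Mean Syt1 fell from 1740 to 1565 CPM, and 7 D95N libraries lay below every wild-type library. Choroid plexus markers ran from 281.5 to 1077 and from 201.5 to 1156 CPM with 0 of 7 called, and D95N 4 and D95N 50 were the highest of their genotype. Ttr held 581 of a mean choroid plexus sum of 658 CPM in wild type. No marker of any list was at 0 in every library. The part of these cell types in the annexin differences was not tested. With a meningeal score as a covariate, and with meningeal and red cell scores together, 0 of the 9 genes passed. Both scores include markers that were lower in D95N, so these fits cannot fully separate the scores from genotype. Calls over all genes fell to 485 and 7 in those fits. The log2 fold change of Anxa4 was then 0.88 ± 0.25 and 0.50 ± 0.31 (SE), against an SE of 0.17 without covariates. That of Anxa2 was 0.54 ± 0.16 and 0.62 ± 0.21 (SE), and that of Anxa3 0.18 ± 0.10 and 0.25 ± 0.12 (SE).

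**Figure D4:**
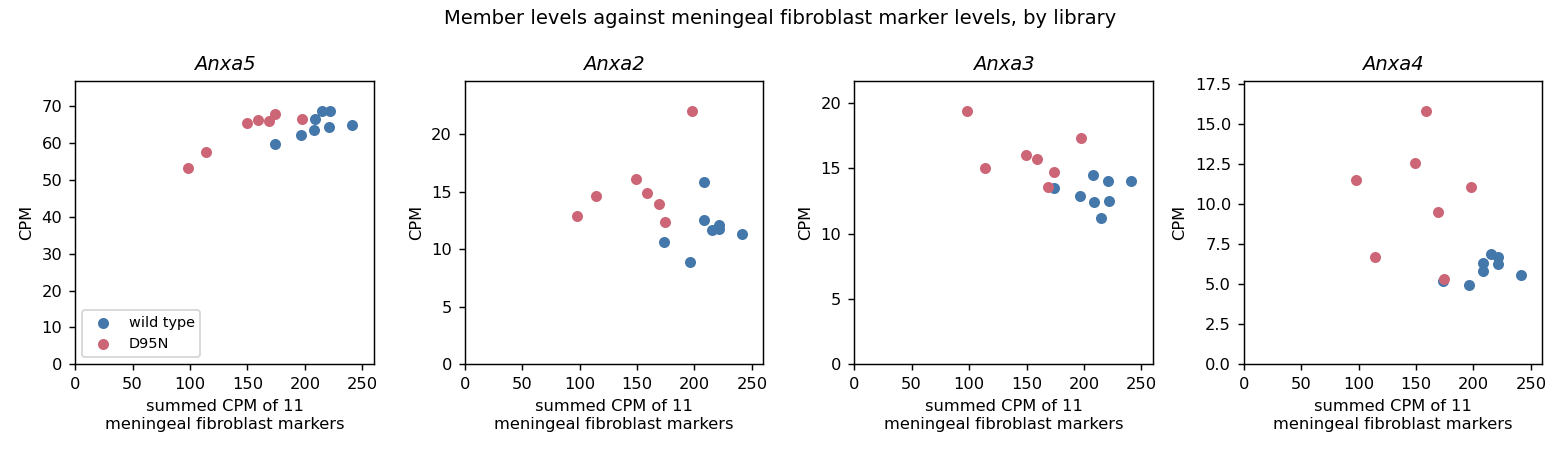
CPM of Anxa5, Anxa2, Anxa3 and Anxa4 in each library (vertical) against the summed CPM of 11 meningeal fibroblast markers (horizontal), by genotype. In D95N, Anxa5 was lowest, at 53.2 and 57.5 CPM, in the 2 libraries with the lowest marker sums.

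The genes whose levels moved most like each member were found from deviations of log2 CPM from the genotype means over all 15 libraries, among genes of at least 5 CPM. These r values carry no p and share library depth and composition. For Anxa4 they were Dnajc6 (r = 0.93), Sh3gl2 (0.93) and Slc4a10 (0.93), which encode auxilin, endophilin A1 and a bicarbonate transporter. For Anxa2 they were Itga6 (0.90), Arpc1b (0.89) and Limd1 (0.89), an integrin, an actin-nucleating subunit and a LIM protein. Anxa5 was nearest to Prkcq (0.91), Alpl (0.91) and Aebp1 (0.91), and Anxa7 to Kcnj9 (0.93), Sytl2 (0.90) and Itga4 (0.89). S100a10 was nearest to Letmd1 (0.93), Med28 (0.89) and Bod1 (0.86), Anxa6 to Trim13 (0.88), Mmp17 (0.86) and Lynx1 (0.84), and Anxa11 to Kdm6b (0.87), Furin (0.86) and Phc2 (0.86). Anxa3 was nearest to Nacc1 (0.84), Bok (0.82) and Sco2 (0.81), and Anxa1 to Prox1 (0.83), Ryk (0.83) and Wdr60 (0.79).

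The other annexins were scarce. Of 4, Anxa10 and Anxa13 did not reach the filter, and the 2 tested were lower in D95N (edgeR, Benjamini-Hochberg). The shares over all tested genes were 11.6% lower and 15.2% higher. Anxa8 fell from 0.629 ± 0.210 to 0.361 ± 0.136 CPM (log2 fold change -0.77 ± 0.26, SE; edgeR adjusted p = 0.0365), and Anxa9 fell by 0.69 ± 0.25 (SE) on the log2 scale (edgeR adjusted p = 0.0480). Anxa8 kept the call in 8 of 15 fits that left out a library, losing it without D95N 21, 28 or 4 or wild-type 11, 24, 32 or 8. Anxa9 kept it in 3, those without D95N 41, D95N 42 or wild-type 43, and lost it without the filter on low counts. Both genes were left out of the 9 when these were chosen.

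Of 15 other S100 genes, 11 were tested, 2 rose and 2 fell, with a median log2 fold change of 0.11. Over all tested genes 15.2% were higher and 11.6% lower. S100a6, or calcyclin, rose from 9.11 ± 1.62 to 13.1 ± 3.36 CPM (log2 fold change 0.53 ± 0.15, SE; edgeR adjusted p = 0.0187), also without any 1 library. S100a3 rose by 0.75 ± 0.23 (SE) on the log2 scale (edgeR adjusted p = 0.0250) at a wild-type level of 0.512 CPM, and lost the call without D95N 21, 44 or 50. S100a8 and S100a9, which encode the neutrophil protein calprotectin, fell: they had log2 fold changes of -2.70 ± 0.76 (SE, edgeR adjusted p = 0.0144) and -2.05 ± 0.69 (SE, edgeR adjusted p = 0.0362). Wild-type 32 held 9.53 and 10.3 CPM of them. Without it the log2 fold changes were -1.74 for S100a8, which kept the call, and -1.18 for S100a9, which lost it. S100a9 also lost it without D95N 28, 4, 41 or 44 or wild-type 19, and both genes missed the threshold with limma-voom. Summed neutrophil markers, which include both genes, ran from 0.81 to 30.9 CPM in wild type, highest in that library, and from 0.905 to 3.16 CPM in D95N, and their part was not tested. S100b, an astrocyte protein and the most abundant S100 gene, stood at 169 CPM in wild type and 183 CPM in D95N and did not pass.

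Among 13 cargoes, binding partners and plasminogen-system genes of the annexin A2 complex, 12 were tested, 4 rose and 2 fell, beside 15.2% higher and 11.6% lower over all tested genes, with a median log2 fold change of 0.06. Grm5, the metabotropic glutamate receptor mGluR5, to which S100A10 binds, fell from 254 ± 14.5 to 201 ± 20.3 CPM (log2 fold change -0.34 ± 0.06, SE; edgeR adjusted p = 0.000640). Htr1b, a serotonin receptor that S100A10 brings to the surface, fell from 24.6 ± 2.57 to 17.8 ± 3.41 CPM (log2 fold change -0.47 ± 0.10, SE; edgeR adjusted p = 0.00266). Plat, tissue plasminogen activator, which binds the complex, rose from 34.6 ± 2.70 to 44.6 ± 4.45 CPM (log2 fold change 0.37 ± 0.06, SE; edgeR adjusted p = 0.000839). Kcnk3, the potassium channel TASK-1, another S100A10 cargo, rose by 0.26 ± 0.05 (SE) on the log2 scale (edgeR adjusted p = 0.00179). Each of these 4 kept its call without any 1 library. Ahnak, the giant scaffold bound by the complex, stood at 53.4 CPM in wild type and 51.6 CPM in D95N and did not pass. Of 5 tested partners of other annexins, Pdcd6, the ALG-2 calcium sensor that binds annexins A7 and A11, rose by 0.18 ± 0.05 (SE; edgeR adjusted p = 0.0157), and Sri, sorcin, an annexin A7 partner, fell by 0.11 ± 0.03 (SE; edgeR adjusted p = 0.0233), both on the log2 scale. Sri lost the call without D95N 21. The annexin A1 receptors Fpr1 and Fpr2 did not reach the filter.

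Annexins gather at wounds in the plasma membrane, and of 10 other membrane repair genes 4 rose and 0 fell, against 15.2% of all tested genes higher and 11.6% lower. Cavin1, a coat protein of caveolae, rose from 27.2 ± 1.35 to 44.2 ± 13.1 CPM (log2 fold change 0.70 ± 0.14, SE; edgeR adjusted p = 0.00212). Capns1, the small calpain subunit, rose by 0.22 ± 0.04 (SE; edgeR adjusted p = 0.000766), Dysf, dysferlin, by 0.30 ± 0.08 (SE; edgeR adjusted p = 0.0132) and Pdcd6ip, the ESCRT adaptor ALIX, by 0.11 ± 0.03 (SE; edgeR adjusted p = 0.0186), all on the log2 scale. The median log2 fold change of the 10 was 0.09. Pdcd6ip missed the threshold with library totals or upper-quartile factors in place of TMM.

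Annexin A5 binds phosphatidylserine, and of 15 tested genes that move this lipid across the membrane or engulf cells that expose it, 4 rose and 2 fell, with a median log2 fold change of 0.02. The shares over all tested genes were again 15.2% and 11.6%. Mfge8, the milk fat globule protein that bridges phosphatidylserine to phagocytes, fell from 158 ± 11.1 to 110 ± 15.6 CPM (log2 fold change -0.52 ± 0.08, SE; edgeR adjusted p = 0.000345), and its level in each of the 7 D95N animals was under the lowest wild-type value. Axl, a phagocyte receptor tyrosine kinase, fell by 0.14 ± 0.04 (SE) on the log2 scale (edgeR adjusted p = 0.0158). The flippases Atp8a2 and Atp8a1, which return the lipid to the inner leaflet, rose by 0.30 ± 0.06 (SE; edgeR adjusted p = 0.00181) and 0.24 ± 0.06 (SE; edgeR adjusted p = 0.0112). With the meningeal score as a covariate 1 gene of this list passed, and with both scores 0. All of the lists were drawn up with earlier results of these data known.

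**Figure D5:**
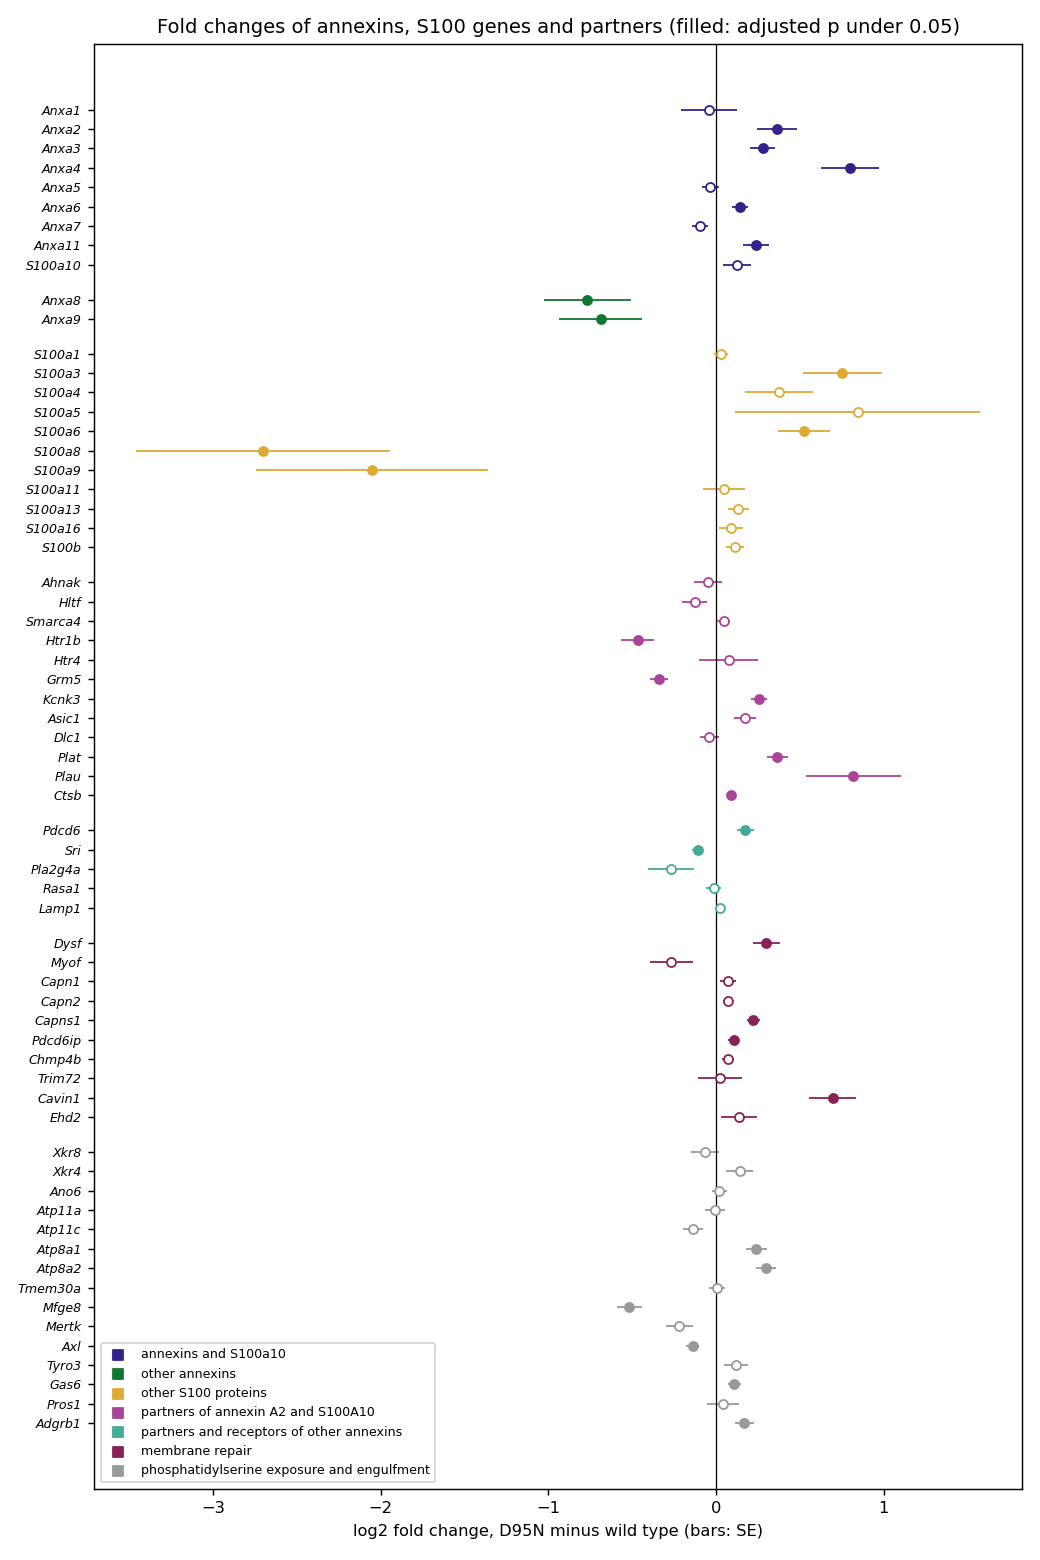
Log2 fold change, D95N minus wild type, with SE as bars, for the 9 genes and the tested genes of each related list, colour giving the list and filled points an edgeR adjusted p under 0.05. Anxa4 stood at 0.80 among the 9, and the S100 list ran from -2.70 for S100a8 to 0.75 for S100a3 among genes that passed.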

How the data were processed

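RNA-seq read counts per gene were analysed for 15 mice, 7 D95N and 8 wild type, grouped by the genotype labels. The deposited values are raw counts, 1 table per sample; the authors used STAR, featureCounts and the GRCm38 build, per the submitters' processing notes, and the sources used here give no version, annotation, strand or multi-mapping setting. Of 22524 identifiers, 22291 matched GENCODE M21, which also gave positions and exon lengths. Depth per library ran from 23349381 to 34587082 counts. Batches, litters and dates are not labelled. The edgeR p-values set the difference between genotypes against the spread between these animals. Those of the correlations come from permuted pairings of libraries within a genotype.

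The test was edgeR 4.0.16's quasi-likelihood test in R 4.3.3 on all genes, with TMM factors, the default expression filter and genotype as its term, with Benjamini-Hochberg adjustment at 0.05. The SE is the log2 fold change over the square root of F. CPM and CPM per kb were computed here. Correlations used exact two-sided permutations over pairings in Python 3.11.15 with SciPy 1.17.1. Alternatives were other scaling factors, no filter, DESeq2 1.42.0, limma 3.58.1 (voom), marker scores as covariates and each library left out. The test was checked on simulated counts. All 9 genes are named, with up to 4 passing genes of each related list by smallest p, and 3 genes most like each member. S100b, Ahnak, Fpr1, Fpr2, Anxa10 and Anxa13 were named outside this rule, after their values were seen. So were single marker genes of the cell types, and Plau was named because it was flagged as an outlier. The members and lists were chosen with earlier results of these data known.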

Additional observations from a re-analysis of the deposited data

Results flagged for a closer look

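In groups of 7 or 8 libraries, 12 of 92 sets of values had a highest or lowest library far from the rest (Dixon's criterion). For normally distributed values, chance meets it in about 1 in 20 sets. CPM values need not be normal and some sets share genes, so nothing is read from this count. Among the annexins the flagged value was Anxa2 in D95N 50, at 22.0 CPM against 12.4 to 16.1 CPM in the other D95N libraries. Among related genes, Plau, urokinase, stood at 14.5 CPM in D95N 4 against 2.88 to 7.05 CPM. In wild type, S100a3 stood at 0.863 CPM and Atp8a1 at 316 CPM in wild-type 24, Capns1 at 137 CPM in wild-type 19 and Atp8a2 at 28.7 CPM in wild-type 11. S100a8 and S100a9 stood at 9.53 and 10.3 CPM in wild-type 32. The summed neutrophil markers, which contain both, stood at 30.9 CPM there. Summed red cell markers reached 148 CPM in D95N 42, against 36.0 to 71.1 CPM in the other D95N libraries. Summed astrocyte markers reached 4570 CPM in wild-type 24, and summed skeletal muscle markers 30.1 CPM in wild-type 19 against 7.00 to 9.44 CPM in the other wild-type libraries.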

How the results depend on the processing

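Of the 9 genes, 5 passed as reported, 2 with library totals (Anxa3 and Anxa4), 4 with upper-quartile factors and 5 with RLE factors, no filter, DESeq2 or limma-voom. With a meningeal score as a covariate 0 passed, as with red cell and meningeal scores together; in these fits calls fell to 485 and 7 over all genes, to 0 and 0 for the other annexins, the other S100 genes and the partners of other annexins, and to 1 and 0 for each of the annexin A2 complex, membrane repair and phosphatidylserine lists. The cause was not tested. The other annexins had 1 call without the filter and the other S100 genes 2 with limma-voom. Without single libraries, calls ran from 2 to 5 for the 9 genes, 3263 to 4976 over all genes, 0 to 2 for the other annexins, 2 to 4 for the other S100 genes, 5 to 7 for annexin A2 partners, 1 to 2 for partners of other annexins, 4 to 4 for membrane repair and 4 to 7 for phosphatidylserine genes; pairs of members in wild type gave 0 to 1. Anxa2 lost its call without D95N 44 or 50 or wild-type 11, 16, 19, 30 or 43. Anxa1 changed sign, to 0.27 and 0.17 with the covariates, and its range without single libraries was -0.12 to 0.053 (0.021 without D95N 21, 0.017 without D95N 42, 0.053 without wild-type 32). Anxa5 changed sign, to 0.14 and 0.13 with the covariates and to 0.0075 without D95N 21, with a range of -0.049 to 0.0075 without single libraries. No paired analysis was possible because the labels give animal numbers that the genotypes do not share. At this depth the scarcest genes rest on few reads, Anxa1 on 48 to 115 per library.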
